A study of Drosophila melanogaster with 6 samples.

Results

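The genes described here encode the proteins of the ribosome, those of the cytosolic particle (symbols beginning RpL or RpS) and those of the mitochondrial particle (symbols beginning mRpL or mRpS). They were taken from a table of messenger RNA levels by symbol alone, and 42 of the 4023 gene symbols analysed met the rule. Of these, 28 were cytosolic, 18 of the large and 10 of the small subunit, and 14 were mitochondrial, 10 of the large and 4 of the small subunit. RNA came from S2, an embryo-derived Drosophila melanogaster line with features of blood cells, after a control knockdown, a knockdown of NAP-1 or a knockdown of CBP, with 2 samples in each group. NAP-1 is a histone chaperone, and CBP, encoded by nej, is a histone acetyltransferase. The agents used for the knockdowns are not given in the labels, and all groups share the same line and medium. Whether replicates came from separate cultures is not given in the labels, and p-values therefore rest on a spread between samples that may be technical.

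The cytosolic ribosome is built from ribosomal RNAs and a large set of proteins that are made in equal numbers, so their transcripts are among the most abundant of any growing cell. In flies, losing a copy of many of these genes delays development and shortens bristles, the Minute phenotype. The mitochondrial ribosome translates the few proteins encoded by mitochondrial DNA, most of them parts of the respiratory chain, and its own proteins are encoded in the nucleus and imported. Its transcripts are usually far rarer than those of the cytosolic ribosome.

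The samples held between 4162019 and 5362319 alignments. Nap1 stood at 220 and 243 RPKM (a read count divided by the length of the feature and by the size of the library) in the controls and at 20.6 and 26.5 RPKM after its knockdown. Under CBP knockdown Nap1 stood at 325 and 365 RPKM, above both controls. The nej transcript stood at 3.25 and 2.47 RPKM in the control libraries and at 0.899 and 0.363 RPKM under CBP knockdown, with 1.26 and 2.41 RPKM under NAP-1 knockdown. Of 12 markers of the blood-like S2 state, 5 had analysed values, among them crq, a scavenger receptor gene, at 42.8 and 19.9 RPKM in the control libraries and at 9.66 and 4.92 RPKM under CBP knockdown. The 16 markers of other cell types were not analysed here. In RNA from whole cultures, fewer cells of a type and less RNA per cell cannot be told apart. Of the 4463 features used, 4152 and 4181 reached 1 RPKM in the control libraries, 3998 and 4029 under NAP-1 knockdown, and 3783 and 3286 under CBP knockdown.

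Every ribosomal protein value is the level of particular messenger RNAs, not necessarily of the whole gene. The 42 genes had 60 listed mRNAs, and 51 were used once repeats of identical values within a gene were dropped. RefSeq annotation of genome release 6, a later build than that of the data, holds 125 mRNAs for these genes, of which 58 were listed. For only 6 genes were all mRNAs of that table listed, namely RpL5, RpL15, RpL38, RpL41, mRpL34 and mRpS5, and 34 genes had a single listed mRNA. Low values reached fractions such as 0.0107 RPKM for RpL26, far under the worth of a single read. If the values were scaled to the alignments of the library, which is not stated, 1 RPKM at the median cytosolic transcript length of 708 nt equals between 2.94 and 3.79 alignments per library.

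Listed levels of cytosolic genes spanned over 3 orders of magnitude between genes. RpL21, a large-subunit protein gene, had the highest mean, with 1471 and 4636 RPKM in the control libraries, 1133 and 6042 RPKM under NAP-1 knockdown, and 2297 and 1984 RPKM under CBP knockdown. Its replicates lay further apart in the control and NAP-1 groups than the group means did from one another. RpL38, another large-subunit gene, had 1300 and 1210 RPKM in the control libraries, 3382 and 835 RPKM under NAP-1 knockdown, and 3159 and 4523 RPKM under CBP knockdown. RpL41, which encodes the smallest protein of the ribosome, had 1191 and 1331 RPKM, 3090 and 1314 RPKM, and 2910 and 3845 RPKM in the same order. In both genes the CBP knockdown libraries lay above the controls, and NAP-1 knockdown replicate 1 lay near them while replicate 2 lay near or below the controls. RpL5, whose protein carries the 5S ribosomal RNA into the large subunit, was the steadiest of the abundant genes, between 1708 RPKM in control replicate 1 and 2215 RPKM in CBP knockdown replicate 1.

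RpL37a, now named RpL37-1, had group means of 1457 ± 447, 1043 ± 702 and 2710 ± 436 RPKM in control, NAP-1 and CBP knockdown (SD, n = 2 each). RpL13 had 836 ± 66.1, 896 ± 434 and 1993 ± 526 RPKM (SD, n = 2 each), and RpS2, a small-subunit gene, had 648 ± 3.86, 889 ± 459 and 1746 ± 496 RPKM. RpL40, which encodes a ribosomal protein fused to ubiquitin, RpLP1, an acidic protein of the stalk that recruits elongation factors, and RpL15 had means over the 6 samples of 615, 596 and 372 RPKM. RpS27 had a mean of 352 RPKM, and RpS13, RpS15Aa, RpL37A and RpL27A had 250.4, 187, 150.0 and 125 RPKM. RpS21, RpS26, RpL18, RpL34a and RpS3A lay between 18.3 and 57.6 RPKM. The order of neighbouring genes in this range is not resolved, since replicates of most of them spread further than the step from gene to gene.

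At the low end, RpL30 and RpL26 had means of 6.33 and 5.03 RPKM, and RpL7-like, RpS5b and RpL32 had 1.94, 1.69 and 1.33 RPKM. The mean of RpL26 rests on 1 library, with 30.1 RPKM in control replicate 1 and at most 0.0188 RPKM in the other 5. RpL32 is widely used as a reference gene in fly work, and its single listed mRNA of 4 in RefSeq stood between 2.9e-08 and 3.55 RPKM, so these values are not the level of the whole gene. RpL28 and RpS10b, with means of 0.319 and 0.123 RPKM, fell under the minimum mean of 1 RPKM and were not tested. RpL7-like is a relative of RpL7, and RpS5b, RpS10b, RpL34a and RpS15Aa are copies of genes whose partner was not analysed here. Reads of such near-identical copies may have been divided between them, so their levels are uncertain.

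Mitochondrial genes were lower and spanned a narrower range. The mRpL42 mRNA had the highest mean, 59.3 RPKM, with 36.1 and 51.4 RPKM in the control libraries, 51.7 and 53.6 RPKM under NAP-1 knockdown, and 71.1 and 91.5 RPKM under CBP knockdown. The CBP knockdown libraries were the highest of the 6, and the control and NAP-1 groups did not overlap either, with replicate 2 of the controls just under both NAP-1 libraries. Next came mRpL28 at 22.7, mRpS5 at 18.0, mRpL14 at 15.8 and mRpL34 at 12.3 RPKM as means over the 6 samples. The rest, mRpL48, mRpS7, mRpL17, mRpL21, mRpS16, mRpL16, mRpS6 and mRpL27, had means from 1.31 to 7.88 RPKM. The listed mRNAs of mRpL23 reached 1.02 RPKM in CBP knockdown replicate 1 and at most 0.000693 RPKM in the other libraries, and that gene was not tested. Of the 42 genes, 39 passed the minimum, 26 cytosolic and 13 mitochondrial.

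**Figure D1:**
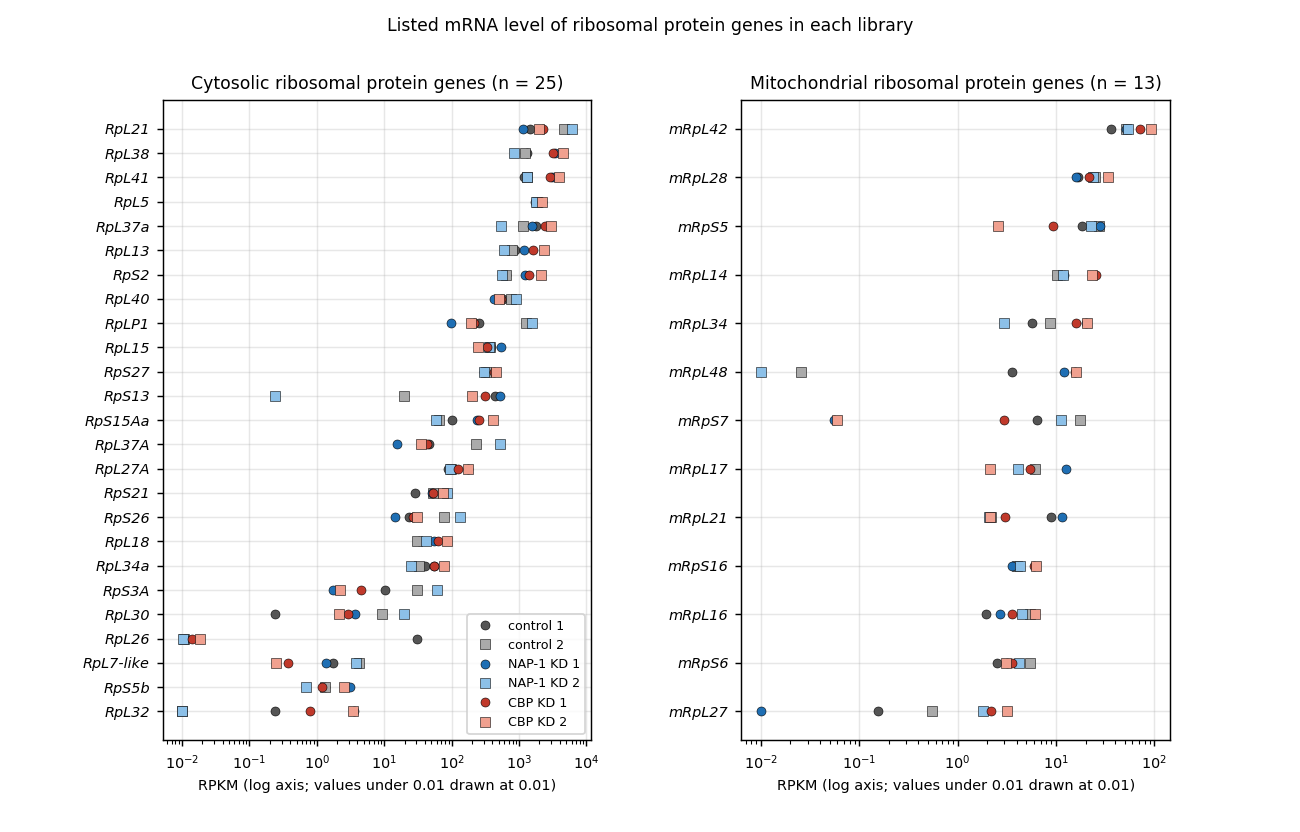
RPKM of 25 cytosolic and 13 mitochondrial tested ribosomal protein genes in each of the 6 libraries on a log axis, cytosolic genes on the left and mitochondrial genes on the right, ordered by mean; circles are replicate 1 and squares replicate 2. The cytosolic means run from 1.33 RPKM (RpL32) to 2927 RPKM (RpL21) and the mitochondrial means from 1.31 RPKM (mRpL27) to 59.3 RPKM (mRpL42), and the squares of the control and NAP-1 groups often sit apart from the other libraries.

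Where a gene had more than 1 distinct listed mRNA, the share of each could be followed across libraries. For RpL13, the mRNA NM_001273383 made up 12.8% and 63.5% of the gene's summed RPKM in the control libraries, 4.3% and 99.3% under NAP-1 knockdown, and 7.91% and 4.99% under CBP knockdown. It was thus the main listed mRNA in control replicate 2 and NAP-1 knockdown replicate 2 and a minor one in the other 4 libraries. For RpL38 the mRNA NM_001273771 made up 2.55%, 10.4%, 0.593%, 25.4%, 1.15% and 0.439% in the same order of libraries. For RpL5 the mRNA NM_001042925 made up 5.04%, 14.97%, 1.72%, 18.7%, 2.59% and 1.69%. In all 3 genes the share was highest in NAP-1 knockdown replicate 2 and next highest in control replicate 2. In each gene both CBP knockdown libraries had a lower share than either control, and the NAP-1 libraries lay on both sides of the controls.

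Summed levels did not follow the shares in the same way in each gene. RpL5 as a whole had 1708 and 1823 RPKM in the control libraries and 2151 and 1808 RPKM under NAP-1 knockdown. The sum for RpL13 ran from 589 RPKM in NAP-1 knockdown replicate 2 to 2365 RPKM in CBP knockdown replicate 2, and that for RpL38 from 835 to 4523 RPKM in the same libraries. RpL15 had 8 listed mRNAs with 2 sets of identical values, and their shares stayed between 48.9% and 51.1% in every library, so they carry no information on mRNA choice. The 3 listed mRNAs of mRpS5, a small-subunit gene of the mitochondrial ribosome, had shares of 53.3% to 72.6%, 7.72% to 22.5% and 11.4% to 29.95%, with the first of them the most abundant in all 6 libraries.

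**Figure D2:**
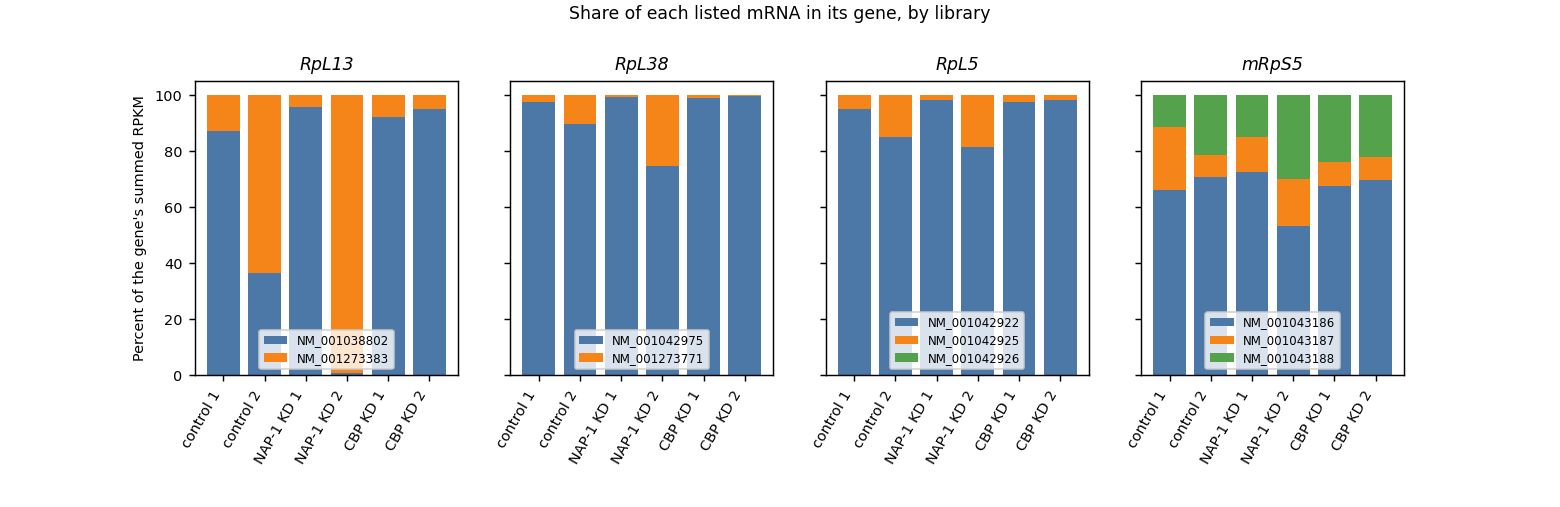
Percent of a gene's summed RPKM held by each listed mRNA, as stacked bars for the 6 libraries, for the 4 tested genes whose distinct listed mRNAs did not keep fixed shares. The second mRNA of RpL13 holds 63.5% in control replicate 2 and 99.3% in NAP-1 knockdown replicate 2 and at most 12.8% elsewhere, and the second mRNAs of RpL38 and RpL5 are highest in the same libraries.

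The same split between replicates ran through the genes with a single listed mRNA. RpLP1 stood at 254 and 1259 RPKM in the control libraries, 98.4 and 1557 RPKM under NAP-1 knockdown, and 213 and 192 RPKM under CBP knockdown. RpL37A stood at 46.02 and 233 RPKM, 15.4 and 526 RPKM, and 43.0 and 35.6 RPKM, and RpS3A at 10.4 and 30.7 RPKM, 1.72 and 59.9 RPKM, and 4.56 and 2.24 RPKM. These mRNAs, like those of RpL21, RpL30 and RpS26, were highest in the second control and second NAP-1 library. RpS13 went the other way, with 446 and 19.7 RPKM in the control libraries, 524 and 0.236 RPKM under NAP-1 knockdown, and 314 and 199 RPKM under CBP knockdown. The mRpL48 mRNA, of a large-subunit protein of the mitochondrial ribosome, was likewise lowest in those libraries, at 0.0259 and 8.15e-14 RPKM.

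Of the 39 tested genes, 16 were higher and 14 were lower in replicate 2 of both the control and the NAP-1 group, 76.9% with the same sign against 52.5% of all 4020 genes tested. Across the 39 genes, which share libraries and depth and are not independent, the differences between replicates of the control and NAP-1 groups correlated with Pearson's r of 0.75 and Spearman's rho of 0.82. Without RpS13 and RpL26 the Pearson correlation was 0.86, and over all genes tested it was 0.24. Replicates differed by over 2-fold on the log2(RPKM + 1) scale in 9 of 26 cytosolic genes in the controls, 19 under NAP-1 knockdown and 1 under CBP knockdown. Among all genes these shares were 7.76%, 15.8% and 11.97%. The NAP-1 replicates of the cytosolic genes differed by a median of 1.25 on that log2 scale, against 0.46 for all genes. The cause of this split was not tested.

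**Figure D3:**
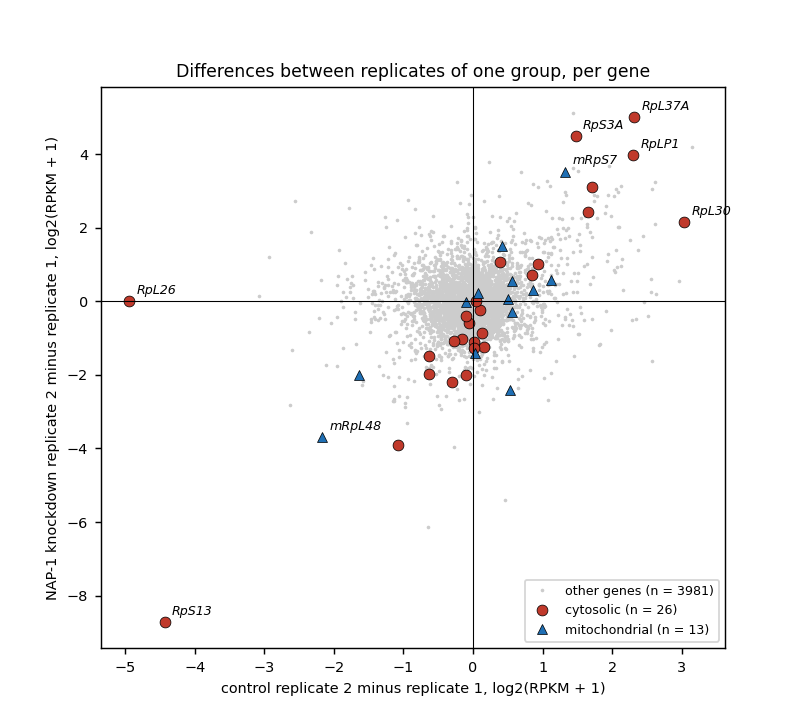
Difference between replicate 2 and replicate 1 on the log2(RPKM + 1) scale, in the controls (horizontal axis) and in the NAP-1 knockdown (vertical axis), with each point a gene. Of the 39 ribosomal protein genes, 30 lie in the lower left or upper right quadrant, with RpS13 at the lower left and RpL37A, RpS3A and RpLP1 at the upper right; RpL26 differs between controls only.

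The comparison of CBP knockdown with control asks which transcripts differ after loss of the acetyltransferase. Among cytosolic genes RpL18 was higher, and no other of the 26 passed the test (limma on log2(RPKM + 1), Benjamini-Hochberg over 4020 genes, adjusted p under 0.05). Of all genes tested, 25.9% were called, 8.53% higher and 17.3% lower, so 1 call of 26 lies under the background. At an unadjusted p under 0.05, 6 cytosolic genes were higher and 1 lower, against 16.5% and 27.2% of all genes. The median log2 fold change of the 26 was 0.54, against -0.15 for all genes, and 16 were positive. Without control replicate 1 the cytosolic median was 0.35. The libraries did not overlap between groups in 14 genes that were higher and 6 that were lower, against 33.7% and 42.3% of all genes. RpL32 is among the 14 and the 16, with group means of 0.119 RPKM in control and 2.10 RPKM in CBP knockdown. It reached the minimum mean of 1 RPKM only through knockdown libraries, so its higher value is no independent result.

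RpL18, a protein of the large subunit, stood at 32.97 and 30.7 RPKM in the control libraries, 54.1 and 41.1 RPKM under NAP-1 knockdown, and 61.9 and 84.3 RPKM under CBP knockdown. Both CBP libraries lay above all others, and RpL18 rose by 1.16 ± 0.28 on the log2(RPKM + 1) scale (SE; limma, adjusted p = 0.0316). Its listed mRNA is 1 of 3 in RefSeq, so the change may not be that of the whole gene. With replicate number as a block in the fit, RpL18 was not called. The call was lost with the trend of fold change on transcript length removed (1.00, adjusted p = 0.0566), with quantile normalization (0.97, adjusted p = 0.0539), and without either control library or CBP knockdown replicate 2 (adjusted p between 0.139 and 0.178), where the difference was 1.21, 1.11 and 0.94. Without control replicate 1 or CBP knockdown replicate 2, 0 of all 4020 genes were called, so a call lost there says nothing of RpL18 in particular.

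The next cytosolic genes with higher values were RpS15Aa and RpS2, both of the small subunit, and neither passed. RpS15Aa had 101.4 and 64.7 RPKM in the control libraries and 254 and 409 RPKM under CBP knockdown, a log2 difference of 1.98 ± 0.64 (SE, limma adjusted p = 0.0605). RpS2 had 645 and 651 RPKM in the control libraries and 1396 and 2097 RPKM under CBP knockdown, a difference of 1.40 ± 0.47 (SE, limma adjusted p = 0.0645). In both genes NAP-1 knockdown replicate 1, at 237 and 1214 RPKM, lay nearer to the CBP libraries than its partner did, at 59.0 and 565 RPKM. Of the other abundant genes, RpL38, RpL41 and RpL13 had log2 differences of 1.59, 1.41 and 1.23 with adjusted p of 0.114, 0.0774 and 0.0844. With only the 4 samples of the comparison in the fit, or without either NAP-1 library, 7 cytosolic genes were called higher and 2 lower. Calls over all 4020 genes rose too, from 343 higher and 697 lower to 560 and 760 with 4 samples, and to 528 and 743 or 547 and 740 without NAP-1 knockdown replicate 1 or 2. The NAP-1 replicates differed by a median of 1.25 on the log2 scale over the cytosolic genes, the CBP replicates by 0.45 and the controls by 0.51.

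Among cytosolic genes with lower values none passed. RpL7-like had 1.72 and 4.18 RPKM in the control libraries and 0.374 and 0.245 RPKM under CBP knockdown, with groups that did not overlap and a log2 difference of -1.52 ± 0.47 (SE, limma adjusted p = 0.0545). RpS3A had a difference of -2.16 ± 1.31 and RpL26 of -2.46 ± 1.37 (SE), with adjusted p of 0.242 and 0.207. The value of RpL26 comes from control replicate 1, and without that library its difference was 0.0082. RpL37A and RpLP1, lower in both CBP libraries than in either control, had differences of -1.39 and -1.48 with adjusted p of 0.511 and 0.399. RpL40 and RpL15 were also below both controls, by -0.37 each.

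Of the 13 mitochondrial genes 1 was higher and 1 was lower under CBP knockdown, beside the 8.53% and 17.3% of all genes given above, so 2 calls of 13 lie under the 25.9% called in all. The mRpL14 mRNA, of a large-subunit protein at the face that joins the small subunit, rose from 11.2 and 10.3 RPKM to 25.7 and 23.3 RPKM, with 12.1 and 11.9 RPKM under NAP-1 knockdown. The 4 libraries of the control and NAP-1 groups lay close together and both CBP libraries stood above them, a log2 difference of 1.12 ± 0.24 (SE, limma adjusted p = 0.0241). With the length trend removed mRpL14 kept its call (0.91, adjusted p = 0.0426), and without any 1 of the control or CBP libraries it lost it (adjusted p between 0.0589 and 0.15), with differences of 1.05 to 1.18 and, in the same 2 fits as above, 0 calls of any gene. The listed mRNAs of mRpS5 summed to 18.4 and 27.5 RPKM in the control libraries, 27.8 and 22.7 RPKM under NAP-1 knockdown, and 9.25 and 2.61 RPKM under CBP knockdown. The CBP libraries were the lowest of the 6, and mRpS5 fell by 1.95 ± 0.50 on the log2 scale (SE; limma, adjusted p = 0.0339). All mRNAs of mRpS5 in RefSeq were listed, and each of the 3 was lower in both CBP libraries than in the control mean. NM_001043188 overlapped between the groups, at 2.20 RPKM in CBP knockdown replicate 1 and 2.11 RPKM in control replicate 1. With replicate number as a block in the fit, mRpS5 was not called. With the length trend removed the fold was -1.92 (adjusted p = 0.0342), and the call was lost without either control library or CBP knockdown replicate 2 (adjusted p between 0.132 and 0.16), with folds of -2.23, -1.67 and -1.20.

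The other mitochondrial genes did not pass. The mRpL42 and mRpL27 mRNAs, both of the large subunit, had log2 differences of 0.89 ± 0.29 and 1.45 ± 0.53 (SE; limma, adjusted p = 0.0595 and 0.081), and mRpL27 stood at 2.18 and 3.17 RPKM under CBP knockdown against 0.156 and 0.545 RPKM. The group means of mRpL27 were 0.351, 0.906 and 2.67 RPKM in control, NAP-1 and CBP knockdown. It reached the minimum mean of 1 RPKM only through the CBP libraries, so its high value there is no independent result. The mRpL48 mRNA stood at 3.61 and 0.0259 RPKM in the control libraries and at 15.8 and 15.9 RPKM under CBP knockdown, the largest difference of the 13 genes, 2.95 ± 1.19 (SE, limma adjusted p = 0.102). On the lower side mRpS7 had -2.53 ± 1.17 and mRpL17 -0.65 ± 0.54 (SE), with adjusted p of 0.141 and 0.387. The small-subunit gene mRpS16 was at 3.77 and 3.99 RPKM in the control libraries and at 6.05 and 6.24 RPKM under CBP knockdown, a difference of 0.55 (adjusted p = 0.164), and mRpS6 differed by -0.13. With only the 4 samples of the comparison in the fit, 5 mitochondrial genes were called higher, and without either NAP-1 library 4 were. With control replicate 2 and NAP-1 knockdown replicate 2 both left out, 0 of the 39 cytosolic and mitochondrial genes were called, as were 0 of all 4020 genes, and RpL18, mRpL14 and mRpS5 had log2 differences of 1.11, 1.07 and -1.67. The median over the 13 genes was 0.39, and it was 0.16 or 0.65 without control replicate 1 or 2 and 0.68 or 0.07 without CBP knockdown replicate 1 or 2. By subunit, 7 of 9 large-subunit genes, mRpL27 among them, had a positive value and 3 of 4 small-subunit genes a negative one, a split that was not tested. Over all genes tested, 1793 of 4020 had a positive value. The small-subunit gene tko, outside this count by its symbol, went the other way from those 3, with a log2 difference of 1.41.

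**Figure D4:**
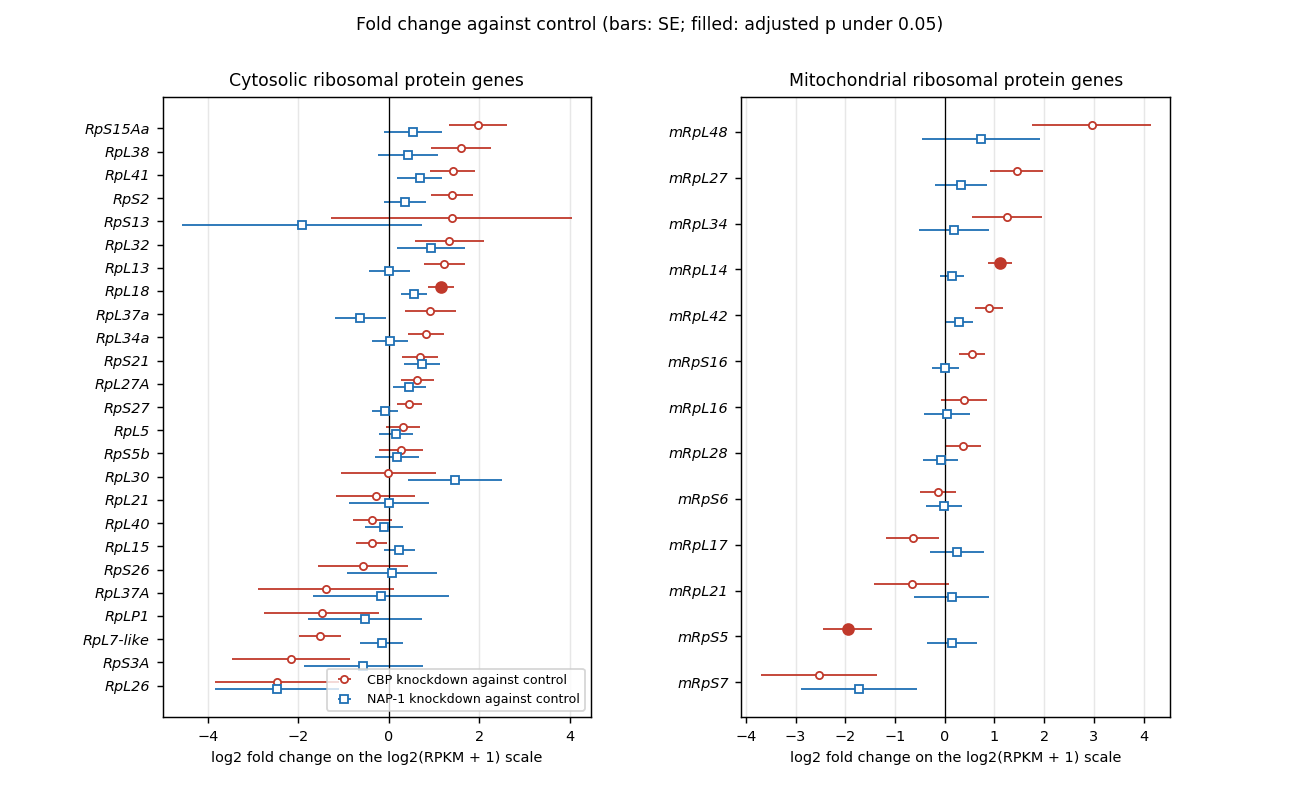
Log2 fold change on the log2(RPKM + 1) scale against control for 25 cytosolic and 13 mitochondrial tested genes, CBP knockdown as circles and NAP-1 knockdown as squares, with bars for the SE and filled symbols for adjusted p under 0.05. Only RpL18 (1.16), mRpL14 (1.12) and mRpS5 (-1.95) are filled, all for CBP knockdown, and the bars of RpS13 and RpL37A are among the widest.

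Ribosomal protein transcripts are short, and fold changes in these libraries varied with length. The median transcript length was 708 nt for the cytosolic and 740 nt for the mitochondrial genes, against 1699 nt for all genes tested, each length being the median of the transcripts annotated to that gene in BDGP6. Across 3988 genes the Spearman correlation of the log2 fold change with length was -0.38 for CBP knockdown and -0.37 for NAP-1 knockdown. With the fitted trend on length removed, the median for CBP knockdown was 0.38 for cytosolic, 0.29 for mitochondrial and 0.08 for all genes. RpL7-like passed the test after that step (-1.62, limma adjusted p = 0.0494), and RpL18 no longer did. Within the cytosolic genes, of 320 to 1512 nt, the correlation with length was -0.07, and within the 13 mitochondrial genes it was -0.60.

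**Figure D5:**
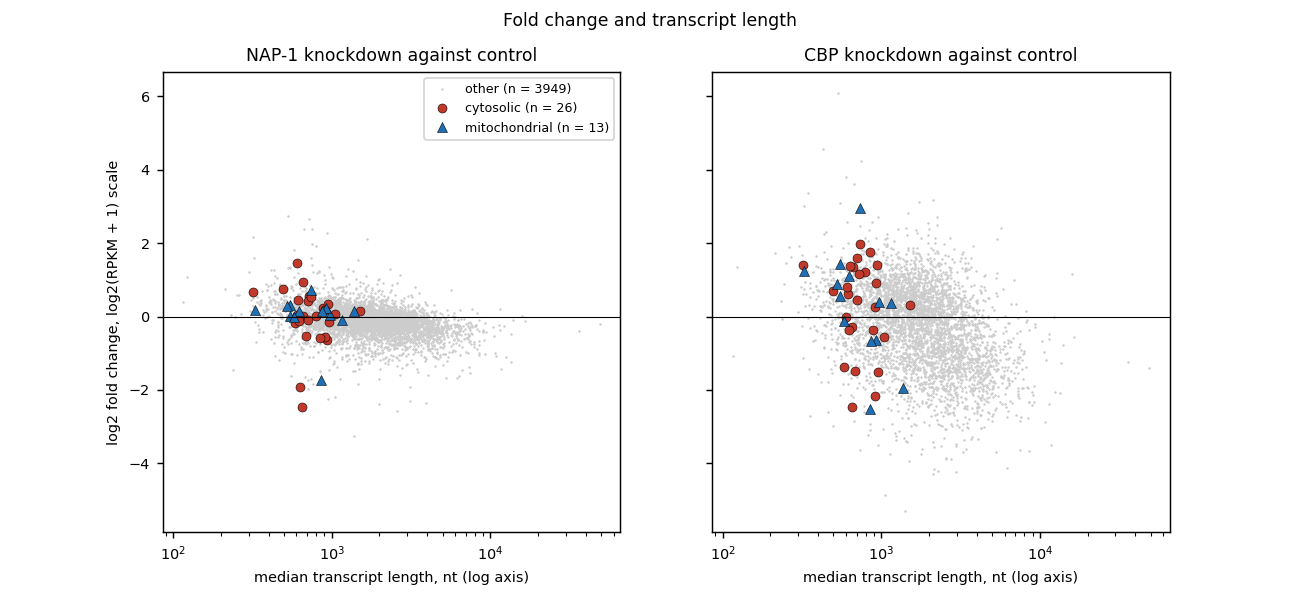
Log2 fold change against control plotted on the median transcript length (log axis) for NAP-1 knockdown on the left and CBP knockdown on the right, with other genes in grey, cytosolic genes as circles and mitochondrial genes as triangles. Ribosomal protein genes sit at the short end, between 320 and 1512 nt, where the values for CBP knockdown lie on both sides of zero, from -2.53 to 2.95.

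NAP-1 knockdown was set against control to ask which transcripts depend on the histone chaperone. It used the same control libraries as the comparison of CBP knockdown. None of the 26 cytosolic or 13 mitochondrial genes was called (0 higher, 0 lower; limma, adjusted p under 0.05), and 0 had an unadjusted p under 0.05, against 0.945% of all genes higher and 2.51% lower. Of all genes, 0.0249% were called, the single gene being Nap1 itself. The median log2 fold change was 0.05 for cytosolic and 0.15 for mitochondrial genes, against -0.13 for all genes. With the fitted trend on length removed, these medians were 0.06, 0.08 and 0.03. Without NAP-1 knockdown replicate 1 the cytosolic median was -0.03, without replicate 2 it was 0.46, and without control replicate 1 or 2 it was 0.10 or 0.27. The mitochondrial median was -0.02 without control replicate 1 and 0.26 without replicate 2, so the sign of neither median held over the libraries left out. Groups did not overlap in 1 cytosolic gene that was higher, RpL18, and 1 that was lower, RpS27, against 8.06% and 26.1% of all genes, and in mRpL14 and mRpL42, both higher.

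The smallest unadjusted p belonged to RpL18, with a log2 difference of 0.55 ± 0.28 (SE, limma adjusted p = 0.978). RpS21, a small-subunit gene, had 28.8 and 52.6 RPKM in the control libraries and 51.3 and 84.5 RPKM under NAP-1 knockdown, a difference of 0.74 ± 0.40 (SE) with overlapping groups. RpL26, at -2.47 ± 1.37 (SE), again rests on control replicate 1. For mRpS7 the controls had 6.48 and 17.7 RPKM and the NAP-1 libraries 0.0551 and 11.1 RPKM, a difference of -1.73 ± 1.17 (SE). The steadiest gene was RpS27, at 314 and 323 RPKM in the control libraries and 302 and 300.2 RPKM under NAP-1 knockdown. With replicates as far apart as those of RpS13 (524 and 0.236 RPKM), a change of several fold in such a gene was not detectable.

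NAP-1 and CBP knockdown were also set against each other, and 0 of 26 cytosolic and 0 of 13 mitochondrial genes were called (limma, adjusted p under 0.05), against 4.98% of all genes, 2.66% higher and 2.31% lower under NAP-1 knockdown. Over all genes, the 107 higher and 93 lower calls became 1 and 1 with a pseudocount of 0.1 and 1 and 3 with the largest single feature. They became 0 and 1 with 4 samples and 0 and 0 with the replicate block. With median-of-ratios scaling they were 131 and 110, with quantile normalization 58 and 66, and with the length trend removed 60 and 94. At an unadjusted p under 0.05, 1 cytosolic gene was higher and 2 were lower under NAP-1 knockdown, against 17.7% and 13.9% of all genes, and 1 mitochondrial gene went each way. The 3 cytosolic genes with such a p were RpL7-like, with a log2 difference of 1.36, and RpL37a and RpL13, with -1.55 and -1.22 (limma adjusted p = 0.111, 0.12 and 0.128). The mitochondrial genes were mRpS5 and mRpL14, which stood apart from control in CBP knockdown, with 2.10 ± 0.50 and -0.97 ± 0.24 (SE; limma, adjusted p = 0.0593 and 0.0636). The mRpL27 mRNA, which passed the minimum mean only through the CBP libraries, had the next smallest p, with a difference of -1.12 (limma adjusted p = 0.189). Groups did not overlap in 3 cytosolic genes that were higher, RpL15, RpL30 and RpL7-like, and in 10 that were lower, and in 1 and 5 mitochondrial genes, against 32.8% and 29.8% of all genes. The 10 include RpL26, at 0.0109 and 0.0103 RPKM under NAP-1 knockdown and 0.0142 and 0.0188 RPKM under CBP knockdown. These values lie far under the worth of a single read. Without NAP-1 knockdown replicate 1, 5 cytosolic genes were called lower and 1 higher, among them RpL37a (-2.30) and RpL13 (-1.73), while calls over all genes went from 93 lower and 107 higher to 301 and 166.

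As a share of the summed RPKM of all genes tested, the listed cytosolic mRNAs held 18.0% and 21.6% in the controls, 24.2% and 23.6% under NAP-1 knockdown, and 23.7% and 27.8% under CBP knockdown. Both knockdown groups lay above the controls. The 5 most abundant genes, RpL21, RpL38, RpL41, RpL5 and RpL37a, made up between 64.2% and 68.6% of the cytosolic sum in every library. Without the 3 most abundant, the shares were 11.9% and 11.3%, 13.2% and 11.4%, and 13.2% and 15.4%. NAP-1 knockdown replicate 2 then lay within the range of the controls; RpL21 stood at 6042 RPKM in that library. The mitochondrial mRNAs held between 0.189% and 0.252% of the sum in the 6 libraries, with overlapping groups.

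Other genes of the ribosome pathway were read from lists, whose counts for CBP knockdown stand beside the 8.53% of all genes called higher and 17.3% called lower. Of 6 ribosomal proteins under other symbols, 2 were analysed. One of them, tko, which encodes a small-subunit protein of the mitochondrial ribosome, rose under CBP knockdown from 5.28 and 7.29 RPKM to 16.8 and 19.6 RPKM (1.41 ± 0.27, SE; limma, adjusted p = 0.0189). The other, Rack1, a scaffold protein of the small subunit, had a log2 difference of 0.65 (adjusted p = 0.204). Of 31 ribosome assembly and nucleolar genes, 10 were analysed, and 1 was higher and 3 were lower under CBP knockdown, with a median of -0.38. Fib, the methyltransferase of ribosomal RNA, rose by 1.15, while Nopp140, a nucleolar protein gene, fell by 2.00 and Mat89Ba by 1.46 (limma, adjusted p between 0.0182 and 0.0321). The nucleolar protein gene mod was the other, at -4.30.

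Of 12 genes of RNA polymerase I and its factors, which transcribes ribosomal RNA, 2 were analysed, and Rpb12, a subunit shared by the nuclear polymerases, was lower (-2.70, limma adjusted p = 0.0483). Of 17 genes of mitochondrial translation and gene expression 1 was analysed, EfTuM, a mitochondrial elongation factor, which rose by 1.06 (adjusted p = 0.0474). Of 15 initiation and elongation factors 7 were analysed and 1 was lower, eIF-4B (-3.23, adjusted p = 0.0161). The elongation factor genes Ef1beta and EF2 were, like RpLP1, highest in NAP-1 knockdown replicate 2 and next in control replicate 2, with 65.3 and 188 RPKM in the control libraries and 22.8 and 277 RPKM under NAP-1 knockdown for Ef1beta. Of 14 regulators of ribosomal protein genes 7 were analysed and 2 were lower, S6k, the kinase of the small-subunit protein S6 (-2.23, adjusted p = 0.0198), and larp, whose protein binds such mRNAs (-2.69, adjusted p = 0.0198). Against control, 0 of the analysed genes of these 6 lists were called in NAP-1 knockdown. Against CBP knockdown, tko was lower and mod higher under NAP-1 knockdown, with log2 differences of -1.28 and 3.14 (limma, adjusted p = 0.0497 and 0.0495). Of all genes, 2.66% were called higher and 2.31% lower in that comparison, and few calls remained in several of the alternative fits given above.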

How the data were processed

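RNA was measured in 6 samples, 2 in each of 3 groups, with a stranded kit for messenger RNA per the labels' protocols. The authors deposited 1 table of RPKM values with the count of alignments per sample. Per the submitters' processing notes reads were placed on genome build dm3; which aligner and counting program were used is not given in the sources used here. Of 16381 feature columns, 4463 were used: those with a mean of at least 1 RPKM and all columns of the ribosomal protein genes, Nap1 and nej, less repeats of identical values within a symbol. The other 11918 were not used. Columns were summed per symbol, so where reads were shared out equally among identical mRNAs, as may be the case for RpL15 and RpL5, the sum understates the level. The 4020 genes with a mean of at least 1 RPKM were log2(RPKM + 1) transformed and tested with limma 3.58.1 (R 4.3.3) in 1 model over the 6 samples with a variance trend and Benjamini-Hochberg adjustment at 0.05. This scale understates changes of low values. The limma step was tested on simulated data of 4020 genes with 200 changed. It recovered 1.6% of 2-fold and 43.8% of 4-fold changes for CBP knockdown and 2.6% and 48.2% for NAP-1 knockdown, each against control. Both simulations used the same spread per gene, pooled over the 3 groups, so the 2 sets of figures differ only by random draws. The changed genes were picked at random, so the rates are not those of the ribosomal protein genes in particular.

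Members and lists were chosen with earlier results of these data known. Genes given in detail were those with the largest called or, failing calls, smallest unadjusted p per direction in CBP knockdown, the smallest p in the other comparisons, the highest and lowest means, and members of copied gene pairs. The genes with several listed mRNAs, and those that illustrate the split between replicates, were chosen after their values were seen. Alternatives covered pseudocount, minimum, scaling, samples in the fit, replicate number, variance trend, the largest feature per gene, transcript length and each sample left out. Over all genes tested, the replicate deviations correlated at 0.24 (control and NAP-1), 0.12 (control and CBP) and -0.24 (NAP-1 and CBP), so the numbers were not taken to pair the samples. Over the 39 ribosomal protein genes the control and NAP-1 replicate differences correlated at 0.75. For these genes that shared part was left in the spread between replicates. The values of 1 tested cytosolic gene are not reported here, and it enters only counts, medians and sums.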

Additional observations from a re-analysis of the deposited data

How the results depend on the processing

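A fit without the minimum on mean RPKM was planned and not run, because lower features of other genes were left out from the start. For CBP knockdown against control, the 1 cytosolic gene called higher became 2 with median-of-ratios scaling, 0 with quantile normalization, 7 with 4 samples in the fit, and 0 with the replicate block or the length trend removed. The 0 called lower became 1 with a pseudocount of 0.1 or the length trend removed, and 2 with 4 samples. The 1 mitochondrial gene called higher became 2 with either scaling and 5 with 4 samples, and the 1 called lower became 0 with the replicate block. Over all genes, the 343 higher and 697 lower became 503 and 644 with median-of-ratios scaling and 382 and 430 with quantile normalization. They became 193 and 510 with the replicate block, 441 and 390 with the length trend removed, 278 and 561 with a pseudocount of 0.1, and 560 and 760 with 4 samples. With each library left out in turn, cytosolic calls ranged from 0 to 7 higher and 0 to 2 lower, and mitochondrial calls from 0 to 4 higher and 0 to 1 lower; over all genes they ranged from 0 to 547 higher and 0 to 743 lower, with 0 without control replicate 1 or CBP knockdown replicate 2. With control replicate 2 and NAP-1 knockdown replicate 2 both left out, a choice made after seeing the data, each of these was 0, as was the count over all genes. For NAP-1 knockdown against control, 1 cytosolic gene was called lower without control replicate 2, RpL26, and otherwise 0. For NAP-1 against CBP knockdown, 1 mitochondrial gene was called higher with median-of-ratios scaling; without NAP-1 knockdown replicate 1 the cytosolic calls were 1 higher and 5 lower, with 2 mitochondrial calls lower, and without any other single library 0. A crossed pairing of the replicate numbers in that comparison, also added after seeing the data, gave 2 cytosolic and 1 mitochondrial calls in each direction. Over all genes that pairing called 476 higher and 274 lower, against 107 and 93 in the main fit. The replicate block left the other counts of called ribosomal protein genes unmoved. The signs of 3 genes turned: RpL26 in CBP knockdown between -4.94 and 0.0082 over the libraries left out, and in NAP-1 knockdown mRpS7 between -3.49 and 0.0373 and mRpL27 between -0.42 and 1.07, or -0.21 with both libraries out. Medians of the log2 fold change moved by less than the SD between replicates (0.43 cytosolic, 0.53 mitochondrial) in each alternative, which is a wide bound beside medians of 0.05 to 0.54. With each library left out they ran, for NAP-1 knockdown, from -0.03 to 0.46 (cytosolic) and -0.02 to 0.26 (mitochondrial), for CBP knockdown from 0.35 to 0.74 and 0.07 to 0.68, and for NAP-1 against CBP knockdown from -0.57 to 0.03 and -0.66 to -0.15. Median-of-ratios scaling moved the median of all genes for CBP knockdown from -0.15 to 0.01 and quantile normalization moved it to 0.12; beside these the cytosolic median was 0.74 and 0.26. The cause of each change was not tested.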
